A study of Mus musculus with 6 samples.

Results

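Voltage-gated calcium and sodium channels are built from large pore-forming alpha subunits and smaller auxiliary subunits, and the genes described here encode all of these parts. The members are the genes of the deposited expression table whose symbols belong to the calcium alpha-1 (Cacna1), alpha-2-delta (Cacna2d), beta (Cacnb) and gamma (Cacng) families or to the sodium alpha and beta families (Scn). There are 40 such genes among the 32201 in the table, and they were chosen by name, not by any measured value. Of the 40 genes, 29 had a mean of at least 1 FPKM (mapped fragments scaled to transcript length and library depth) over the 6 libraries and entered the test. The other 11 are described by their levels.

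RNA depleted of ribosomal RNA was sequenced from hippocampus from male C57BL/6N mice aged 8 weeks. All mice had been put through chronic unpredictable mild stress, a rota of mild stressors that models depression in rodents. In 3 libraries the mice had been given baicalin, a flavone glucuronide of Scutellaria baicalensis root, at 20 mg/kg, and in 3 they had been given saline. Unstressed controls, which the labels also mention, are not analysed here, and both groups below had been stressed. The labels do not say whether each library came from a separate animal or from pooled tissue, so p-values refer to the spread of libraries, and that spread may be technical.

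The alpha-1 subunit of a calcium channel forms the pore and senses voltage, and its gene sets the current type: L-type channels couple activity to gene transcription, P/Q-, N- and R-type channels trigger transmitter release, and T-type channels open near rest and support burst firing. The alpha-2-delta and beta subunits bring these pores to the membrane, and most of the gamma subunits expressed in brain act as transmembrane AMPA receptor regulatory proteins (TARPs). Sodium alpha subunits carry the upstroke of the action potential from the axon initial segment, and sodium beta subunits adjust gating and cell adhesion.

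Library totals were 61303274 to 64983755 counts with baicalin and 65989141 to 67957752 counts with saline. In baicalin libraries 0.327 to 0.356% of counts fell on the channel genes, against 0.3504 to 0.370% in saline libraries, so the ranges overlapped. General neuronal markers, a list of 8 genes that includes Snap25 and Rbfox3, summed to 1022 to 1030 FPKM with baicalin and 986 to 1045 FPKM with saline, with overlap. In bulk tissue, fewer cells of a type and less RNA per cell cannot be told apart.

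Among the pore-forming and auxiliary calcium channel genes, the log2 change (baicalin minus saline) was negative in 19 of 21 measured genes, as for 50.2% of all genes tested, with a median of -0.10. No channel gene passed the adjusted threshold of 0.05 in edgeR's quasi-likelihood test, where 0.0456% of the 13153 genes tested were called. At an unadjusted p under 0.05, 8 of the 29 genes were lower with baicalin, against 5.46% of all genes tested, and 0 were higher, against 6.34%. The groups did not overlap in 8 of the 29 genes, all lower with baicalin, as for 9.52% of all genes tested in that direction, and in 0 genes that were higher, against 9.93%. The 8 genes past the unadjusted p were Cacna1a, Cacna1d, Cacna1e, Cacna1g, Cacna2d1, Cacna2d3, Cacnb2 and Scn2a. Of 8 measured sodium channel genes 6 were higher with baicalin, and the median log2 change was 0.05. Under TPM scaling, where the median of all genes was -0.07, Scn1a (-0.11), Scn2b (-0.06) and Scn4b (-0.01) had negative changes too, and 26 of the 29 channel genes did in all. Over all 29 genes the median log2 change was -0.08, and over all genes tested it was -0.0006.

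**Figure D1:**
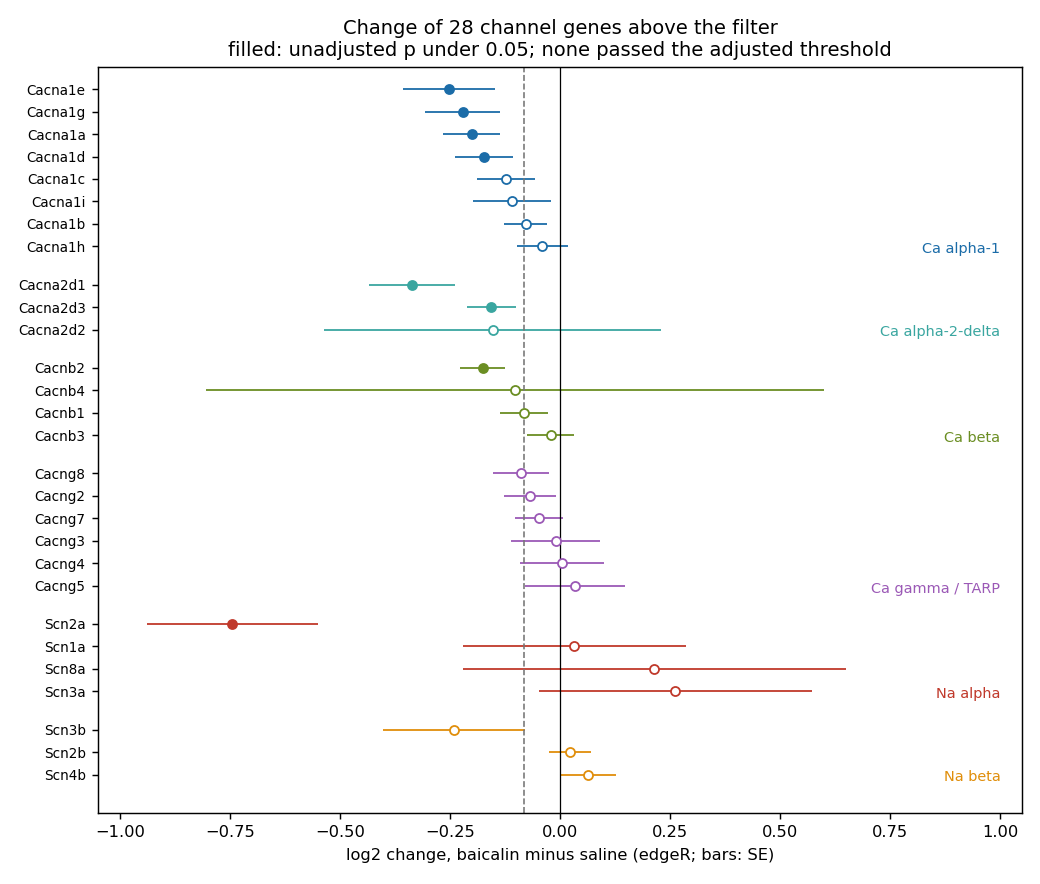
Log2 change (baicalin minus saline, edgeR, bars are standard errors) of 28 channel genes above the filter, grouped by subunit class; filled points had an unadjusted p under 0.05 and the dashed line is the median of all 29 measured genes, -0.08. The calcium alpha-1 points all lie left of 0, and the sodium alpha points spread from -0.75 to 0.26.

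Exon length moved with this result, and its part in it was not tested beyond the values given here. All genes tested were split into quintiles by summed exon length, and the shortest quintile had a median log2 change of 0.11 and the longest one of -0.07. Channel genes are long: 17 of the 29 lay in the longest quintile, where 72.2% of the 2630 genes had a negative change and 13.2% were lower at an unadjusted p under 0.05. Of the 17 channel genes there, 14 had a negative change and 8 were lower at that p, and these are the 8 genes named above. Of the 1597 genes at least as long as the median channel gene, 74.7% had a negative change and 16.2% an unadjusted p under 0.05 in either direction. When the length trend was removed within each library, the median of the 29 genes was -0.03. Cacna2d1 and Scn2a alone kept an unadjusted p under 0.05. These were 2 of the 29 genes, against 9.32% of the 13148 genes tested in that setting.

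**Figure D2:**
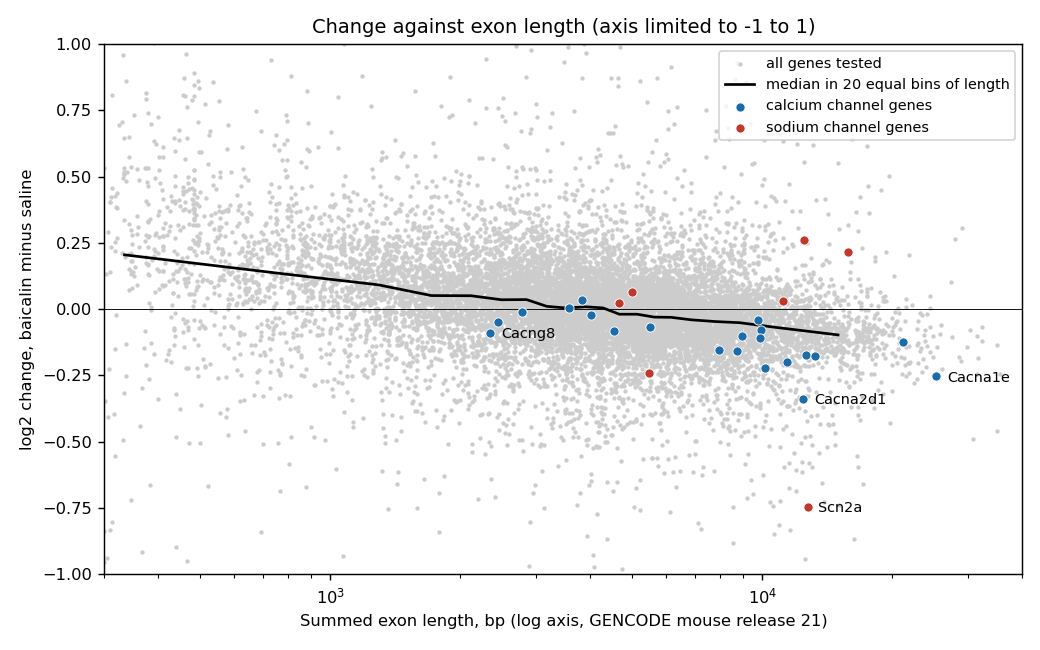
Log2 change (baicalin minus saline) against summed exon length on a log axis for all genes tested (grey), with 28 channel genes in colour, calcium in blue and sodium in red; the black line is the median in bins of equal gene number. The line falls with length, most long calcium channel genes lie near or below it, and Scn2a lies far below it at -0.75.

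The alpha-1 genes, which form the pores, shared a direction in edgeR before the length trend was removed. All 8 measured members were lower with baicalin (log2 changes -0.25 to -0.04, median -0.15), as were 50.2% of all genes tested. Each of the 8 was longer than the median channel gene, and 74.7% of the 1597 genes at least that long had a negative change. The summed level of the class was 62.7 to 63.3 FPKM with baicalin against 69.5 to 71.7 FPKM with saline. These summed ranges did not overlap, in FPKM from which the length trend was not removed. With that trend removed the median log2 change was -0.06, and Cacna1c (0.01) and Cacna1h (0.04) turned positive. Summed by current type, the genes of the P/Q-, N- and R-type channels gave 34.8 ± 1.18 FPKM with baicalin and 39.7 ± 0.626 FPKM with saline (SD, n = 3 each). The L-type genes summed to 8.39 ± 0.413 FPKM with baicalin and 9.21 ± 0.503 FPKM with saline, and the T-type genes to 19.9 ± 0.867 FPKM with baicalin and 21.4 ± 0.194 FPKM with saline.

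Cacna1e, the R-type pore gene (ENSMUSG00000004110, chromosome 1, 154390731 to 154884024 in the deposited table, build mm10), had the highest level of the class. Its CPM, the counts scaled to library size with edgeR's TMM factors, were 417, 326 and 431 in baicalin libraries 1 to 3 and 468, 451 and 481 in saline libraries 1 to 3. The groups did not overlap, and baicalin library 2 lay lowest. The log2 change was -0.25 ± 0.10 (SE; adjusted p = 0.420 in edgeR), and it was -0.14 without baicalin library 2 and -0.11 with the length trend removed.

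Cacna1a, which encodes the P/Q-type pore, had 134, 140.4 and 119 CPM with baicalin, against 151, 152 and 149 CPM with saline. The saline libraries lay within a few CPM of each other and above every baicalin library. The log2 change was -0.20 ± 0.06 (SE; adjusted p = 0.360 in edgeR), and -0.12 with the length trend removed. Cacna1d, an L-type pore gene, had 51.5, 58.7 and 54.5 CPM with baicalin and 62.6, 59.7 and 63.3 CPM with saline. Its groups were also apart, though baicalin library 2 and saline library 2 were close (log2 change -0.17 ± 0.07, SE, and -0.08 with the length trend removed).

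Cacna1g, which encodes a T-type pore, had 43.0, 48.8 and 42.6 CPM with baicalin against 52.7, 56.0 and 48.1 CPM with saline. Here baicalin library 2 exceeded saline library 3, so the groups overlapped (log2 change -0.22 ± 0.08, SE, and -0.14 with the length trend removed). The other L-type pore gene above the filter, Cacna1c, had 107 to 109.9 CPM with baicalin and 112 to 130.03 CPM with saline, without overlap, at a log2 change of -0.12 ± 0.07 (SE) and an unadjusted p of 0.1035 in edgeR. Its change was 0.01 with the length trend removed. The N-type gene Cacna1b (-0.08) and the T-type genes Cacna1i (-0.11) and Cacna1h (-0.04, and 0.04 with the length trend removed) overlapped between the groups.

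Per length, the order within the class was Cacna1e (14.7 FPKM over all 6 libraries), Cacna1b (11.8), Cacna1h (10.9) and Cacna1a (10.7), then Cacna1i (5.61), Cacna1c (4.64), Cacna1g (4.14) and Cacna1d (4.01). The library ranges of neighbours in this order overlapped throughout, except between Cacna1a and Cacna1i. The retinal L-type gene Cacna1f had 0, 11 and 11 counts with baicalin and 18, 21 and 10 counts with saline.

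**Figure D3:**
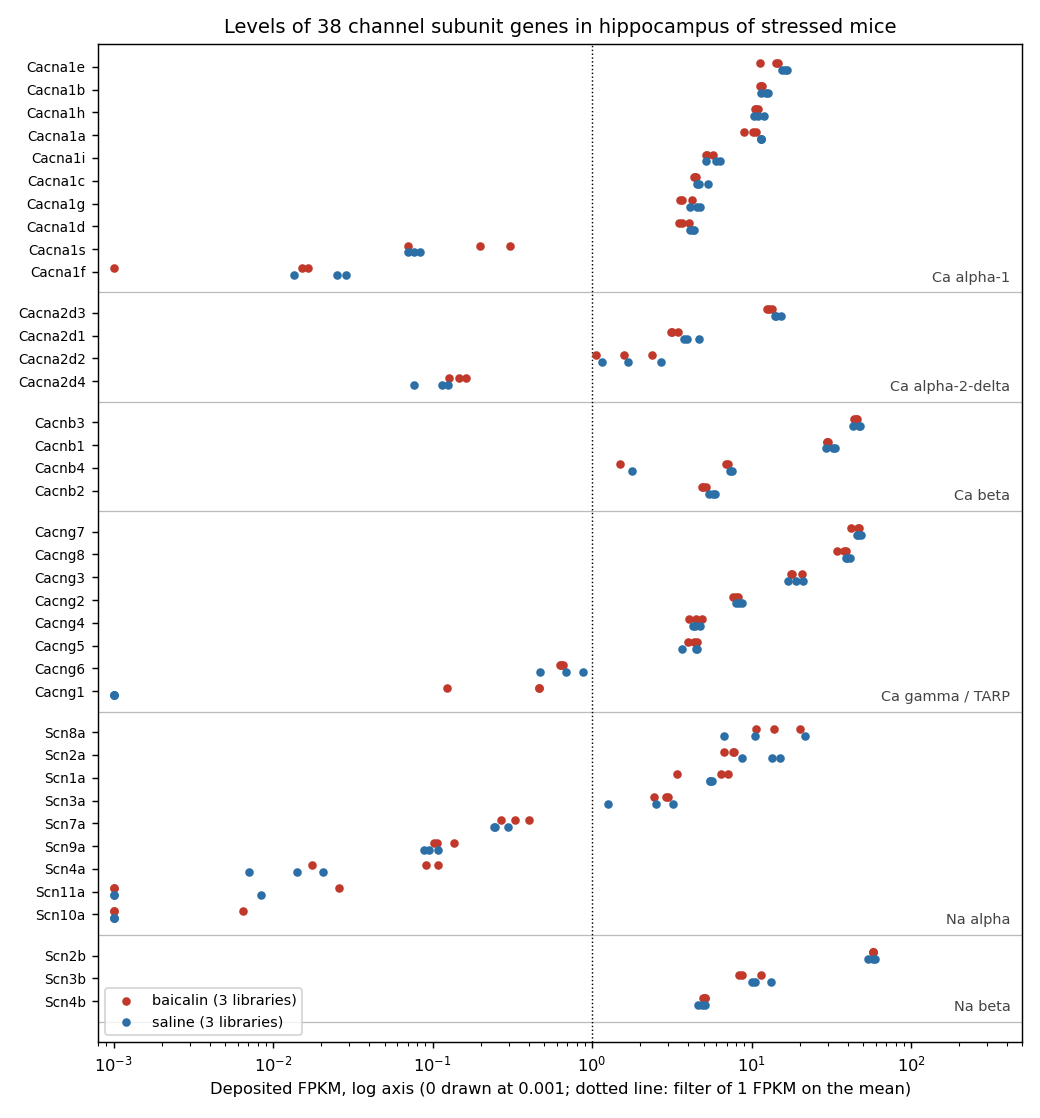
Deposited FPKM (log axis, 0 drawn at 0.001) of 38 of the channel genes in each library, with baicalin libraries in red above saline libraries in blue, ordered by mean level within each subunit class. Scn2b has a mean of 57.4 FPKM and Cacng7 of 46.1 FPKM, and the genes left of the dotted line at 1 FPKM were not tested.

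Markers of CA1 pyramidal cells were mostly lower with baicalin, as the alpha-1 genes were. In baicalin libraries 1 to 3 the mean deviation of log2 CPM from the 6-library mean was 0.02, -0.25 and -0.10 for the markers. For the alpha-1 genes it was -0.09, -0.05 and -0.08. In saline libraries 1 to 3 it was 0.11, 0.08 and 0.04 for the alpha-1 genes and 0.12, 0.16 and 0.05 for the markers. Of 7 such markers 6 had negative log2 changes (median -0.27), and their summed level was 134 to 157 FPKM with baicalin against 163 to 170.4 FPKM with saline. Fibcd1 was at -0.35 and Wfs1 at -0.40, neither past the adjusted threshold. Dentate granule cell markers went the other way, with 5 of 7 positive (median 0.25), though their sums of 76.4 to 78.2 FPKM with baicalin lay inside the saline range of 49.3 to 79.5 FPKM. Saline library 2 gave the low end of that range, against 73.0 FPKM in saline library 1. Of 7 CA2 and CA3 pyramidal markers, 4 were positive and 3 negative (median 0.04). They summed to 177 to 187 FPKM with baicalin and 151 to 170 FPKM with saline, without overlap. Most of that sum came from Pcp4, with 112 to 129 FPKM with baicalin and 79.6 to 99.5 FPKM with saline. The part of these cell types in the channel results was not tested.

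The alpha-2-delta genes encode the extracellular subunits that raise channel density at the membrane. All 3 measured members were lower with baicalin, as were 50.2% of all genes tested, though Cacna2d2 not in every alternative. The summed level of the class was 17.8 to 18.1 FPKM with baicalin against 18.9 to 22.1 FPKM with saline. Cacna2d1 (ENSMUSG00000040118, chromosome 5, 15934691 to 16374511) had 50.0, 44.2 and 45.9 CPM with baicalin against 53.5, 56.7 and 66.9 CPM with saline. Every baicalin library lay below every saline library, and saline library 3 was the highest. The log2 change was -0.34 ± 0.10 (SE; adjusted p = 0.348 in edgeR), -0.24 without saline library 3 and -0.24 with the length trend removed.

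The bases just upstream of Cacna2d1 are shown because this gene kept an unadjusted p under 0.05 after the length trend was removed. The window is the 250 bases before the RefSeq start (GRCm38.p6, chr5:15934441-15934690, plus strand), and capitals mark the GC box GGGCGG on either strand, with overlapping matches run together.
Cacna2d1: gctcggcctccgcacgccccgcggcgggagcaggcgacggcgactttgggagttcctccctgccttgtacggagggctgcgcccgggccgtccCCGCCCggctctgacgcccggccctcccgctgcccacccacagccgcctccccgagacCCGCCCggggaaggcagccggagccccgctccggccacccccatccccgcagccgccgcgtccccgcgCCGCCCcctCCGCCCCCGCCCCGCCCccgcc
This window is 82.4% G and C, against a median of 52.4% over all 32851 RefSeq windows, and holds 6 GC boxes, a motif found in 32.7% of all windows and in 15 of the 41 windows available for channel genes.

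Cacna2d3, the alpha-2-delta gene with the highest level, had 135, 124 and 131 CPM with baicalin against 139.6, 154 and 142 CPM with saline. The groups did not overlap, and the log2 change was -0.16 ± 0.06 (SE; adjusted p = 0.394 in edgeR), and -0.09 with the length trend removed. Cacna2d2 had 9.78, 21.5 and 14.7 CPM with baicalin and 10.6, 25.1 and 15.5 CPM with saline, so replicates within a group differed by more than the groups did (log2 change -0.15 ± 0.38, SE). That value turned to 0.08 without baicalin library 1 and 0.23 without saline library 2, and was -0.48 without baicalin library 2 and -0.40 without saline library 1. Cacna2d4, known chiefly from retina, was below the filter at 0.126 to 0.163 FPKM with baicalin and 0.0763 to 0.124 FPKM with saline.

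Beta subunits bind the loop between the first and second repeats of alpha-1 and bring the pore to the membrane. All 4 genes had negative log2 changes, as for 50.2% of all genes tested. The sign turned in 2 alternatives for Cacnb3 and in 3 for Cacnb4. At an unadjusted p under 0.05, 1 of the 4 was lower, against 5.46% of all genes tested. Cacnb2 had 74.7, 78.2 and 76.7 CPM with baicalin against 86.6, 90.1 and 82.7 CPM with saline. Those groups did not overlap (log2 change -0.18 ± 0.05, SE; adjusted p = 0.349 in edgeR), and the change was -0.08 with the length trend removed. Cacnb3, the beta gene with the highest level at 45.5 FPKM, had 211, 202 and 215 CPM with baicalin and 221, 217 and 199 CPM with saline, with overlap (log2 change -0.02 ± 0.05, SE). Cacnb1 followed at 30.7 FPKM (log2 change -0.08 ± 0.05, SE).

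Cacnb4, the beta gene whose loss causes the lethargic mouse, split the libraries regardless of treatment. It had 73.4, 71.3 and 15.7 CPM in baicalin libraries 1 to 3 and 18.3, 76.4 and 77.5 CPM in saline libraries 1 to 3. A single library of each group thus stood far below the other 4 libraries. The highest library had 4.95 times the CPM of the lowest, a ratio of at least 4 being found in 2.16% of genes tested, and the treatment difference was -0.10 ± 0.70 on the log2 scale (SE). Its value rests on those libraries: the log2 change ranged from -0.53 to 0.33 over the alternatives, and this gene was singled out after its values were seen.

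The gamma and TARP genes had small differences. Of 6 measured members 4 were negative and 2 positive, and log2 changes ran from -0.09 to 0.03. At an unadjusted p under 0.05 there were 0, against 11.8% of all genes tested in either direction. Cacng7, which had the highest level of the class, had 130.4, 133 and 119 CPM with baicalin and 130.2, 137 and 129 CPM with saline (log2 change -0.05 ± 0.05, SE). Cacng8, the TARP that is enriched in hippocampus, had 106, 92.8 and 105 CPM with baicalin and 106, 112 and 105 CPM with saline (log2 change -0.09 ± 0.06, SE). Cacng2, the stargazin gene, was at -0.07, Cacng3 at -0.01, Cacng4 at 0.0038 and Cacng5 at 0.03, and under TPM scaling these last genes were at -0.07 and -0.04.

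Neighbouring gamma genes differed widely in level. Cacng7, Cacng8 and Cacng6 lie side by side on chromosome 7 between 3332955 and 3435667, and had 46.1, 38.6 and 0.660 FPKM over the 6 libraries. On chromosome 11, Cacng4 and Cacng5 had 4.49 and 4.27 FPKM, while their neighbour Cacng1 had 0.175 FPKM. Cacng6 showed no separation, with 0.633 to 0.657 FPKM with baicalin and 0.472 to 0.880 FPKM with saline.

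The sodium alpha genes held the largest difference of any measured channel gene. Scn2a (ENSMUSG00000075318, chromosome 2, 65620771 to 65767447), whose channel sits at the axon initial segment of excitatory neurons, had 113, 113 and 99.5 CPM with baicalin against 195, 223 and 127 CPM with saline. The baicalin libraries were close together and below every saline library, and saline library 3 lay nearest to them. The log2 change was -0.75 ± 0.19 (SE), a ratio of 0.596, and it did not pass (unadjusted p = 0.00711, adjusted p = 0.324 in edgeR). DESeq2 called it (adjusted p = 0.00231), as did edgeR without saline library 3 (log2 change -0.95, adjusted p = 0.0478). Over the alternatives in edgeR, limma and DESeq2 the adjusted p ran from 0.00231 to 0.638 and the log2 change from -0.95 to -0.57.

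RefSeq gives Scn2a a pair of separate starts, and both windows are shown because this gene had the largest difference. The first lies at the start of the deposited gene (GRCm38.p6, chr2:65620519-65620768) and the other far inside the gene (chr2:65668436-65668685), both on the plus strand, with capitals for the TATA box TATAAA on either strand.
Scn2a upstream start: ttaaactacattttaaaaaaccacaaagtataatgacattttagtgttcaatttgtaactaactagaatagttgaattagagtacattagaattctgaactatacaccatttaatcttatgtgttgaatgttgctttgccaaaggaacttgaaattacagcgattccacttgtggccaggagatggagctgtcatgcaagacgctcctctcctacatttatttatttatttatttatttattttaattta
Scn2a inner start: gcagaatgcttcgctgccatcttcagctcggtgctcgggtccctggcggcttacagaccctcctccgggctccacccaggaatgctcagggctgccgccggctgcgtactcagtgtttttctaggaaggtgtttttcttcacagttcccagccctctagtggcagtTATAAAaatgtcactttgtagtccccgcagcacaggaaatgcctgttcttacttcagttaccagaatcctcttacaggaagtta
The upstream window is 29.6% G and C, the lowest of the 41 channel windows, and the inner window is 53.2%. TATAAA occurs in 12.4% of all RefSeq windows and in 2 of the 41 channel windows, the inner Scn2a window and a Cacna1d window. The deposited table gives a single value per gene, so use of either start cannot be read from it.

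The other sodium alpha genes varied between libraries of the same group. Scn8a, the alpha gene with the highest level and the main one of mature axon initial segments, had 365, 194 and 257 CPM with baicalin and 122, 192 and 390.1 CPM with saline. The saline libraries alone spanned the whole range, and the log2 change was 0.21 ± 0.44 (SE), against -0.06 without baicalin library 1, -0.10 without saline library 1, 0.09 without saline library 2, 0.41 without baicalin library 2 and 0.80 without saline library 3. Scn1a, the sodium channel gene of interneurons that is lost in Dravet syndrome, had 91.3, 43.6 and 83.3 CPM with baicalin and 72.3, 71.1 and 70.1 CPM with saline. Its saline libraries lay close together while baicalin library 2 stood low, and without that library the log2 change was 0.29 in place of 0.03 ± 0.25 (SE). It was -0.17 without baicalin library 1 and -0.08 without baicalin library 3.

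Scn3a, which is strongest in the embryonic brain, had 43.0, 41.4 and 35.6 CPM with baicalin and 18.05, 36.3 and 45.7 CPM with saline. Saline library 1 lay far below the rest (log2 change 0.26 ± 0.31, SE, against -0.04 without saline library 1 and 0.56 without saline library 3). Of the 29 measured channel genes, 6 had a highest library at least 2 times the lowest in CPM, namely Cacnb4, Scn8a, Cacna2d2, Scn3a, Scn2a and Scn1a, against 9.21% of all genes tested. The median of that ratio was 1.24 for the channel genes and 1.26 for all genes tested. The lowest library was not the same for each gene. Saline library 1 was lowest for Scn8a and Scn3a and next to lowest for Cacnb4 (18.3 CPM) and Cacna2d2 (10.6 CPM). Baicalin library 3 was lowest for Cacnb4, baicalin library 2 for Scn1a and baicalin library 1 for Cacna2d2 (9.78 CPM). Baicalin library 3 was also lowest for Scn2a, at 99.5 CPM, near baicalin libraries 1 and 2 at 113 CPM.

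**Figure D4:**
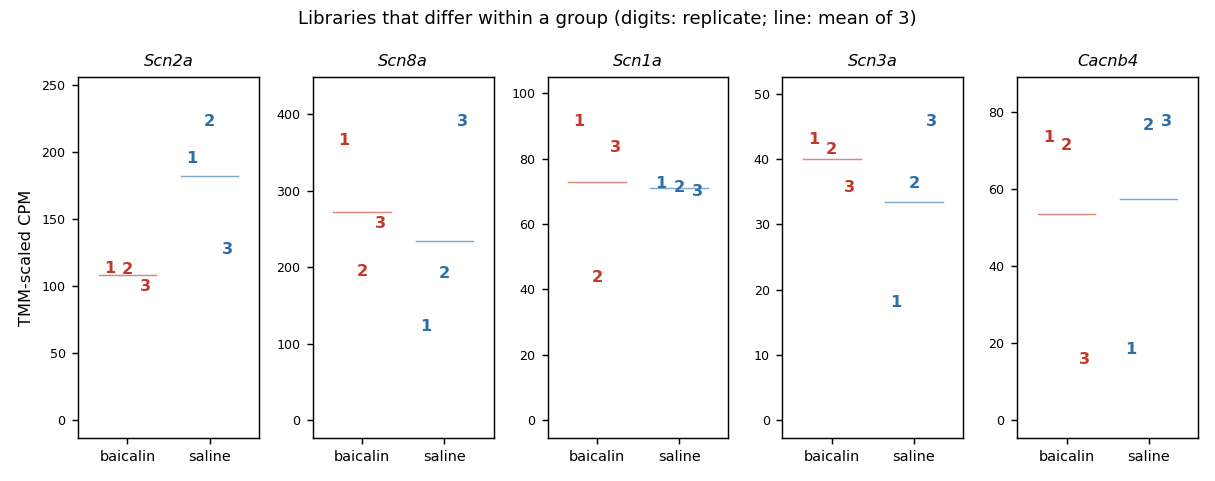
TMM-scaled CPM of 5 channel genes in each library, baicalin in red on the left and saline in blue on the right, with digits for the replicate and lines for the mean of 3. The Scn2a groups are apart, whereas Cacnb4 has a single low library in each group (15.7 and 18.3 CPM) and the saline libraries of Scn8a run from 122 to 390.1 CPM.

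Of the 4 sodium beta genes, 0 had an unadjusted p under 0.05, against 11.8% of all genes tested in either direction. Scn2b, linked to alpha by a disulfide bond, had a mean of 57.4 FPKM over the 6 libraries, with 306 to 316 CPM with baicalin and 289 to 319.6 CPM with saline (0.02 ± 0.05, SE). Scn4b, which supports resurgent current, had 28.6 to 29.9 CPM with baicalin and 26.5 to 29.2 CPM with saline (0.06 ± 0.06, SE). Scn3b had 52.1 to 73.1 CPM with baicalin and 63.3 to 84.2 CPM with saline (-0.24 ± 0.16, SE), a log2 change that was -0.41 without baicalin library 3, -0.15 without baicalin library 2 and -0.10 without saline library 2. All 4 overlapped between the groups. Scn2b and Scn4b are neighbours on chromosome 9 and had 57.4 and 4.96 FPKM over the 6 libraries.

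Below the filter, 3 channel genes of skeletal muscle showed a pattern of their own. Cacng6, which was listed with them as a muscle channel gene, did not share it, with 96, 94 and 88 counts with baicalin and 103, 72 and 136 with saline. Cacng1, the gamma subunit of the skeletal muscle calcium channel (chromosome 11, 107703218 to 107716522), had 12, 43 and 41 counts in baicalin libraries 1 to 3 and 0 counts in every saline library. Taking 3 counts over the whole saline group as the limit that a count of 0 allows, its level summed over the baicalin libraries was 33.8 times that limit. No limit was put on the baicalin counts, and baicalin libraries 2 and 3 held most of them. Scn4a, the sodium channel gene of skeletal muscle, had 10, 57 and 45 counts with baicalin against 4, 8 and 12 with saline. Cacna1s, the pore gene of the muscle excitation-contraction coupling channel, had 35, 97 and 140 counts with baicalin against 39, 43 and 36 with saline. Baicalin libraries 2 and 3 carried these 3 genes, while baicalin library 1 overlapped saline for Scn4a and Cacna1s.

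In the edgeR fit with no filter, the unadjusted p was 0.00134 for Cacng1, 0.0183 for Scn4a and 0.0372 for Cacna1s, and the adjusted p was 0.511, 0.638 and 0.638. These 3 genes were singled out after their values were seen. Muscle transcripts moved with them in the same libraries. Acta1, which encodes skeletal muscle actin, had 16.0, 74.1 and 80.5 CPM with baicalin against 13.9, 15.5 and 11.2 CPM with saline. Ckm, which encodes muscle creatine kinase, had 9.82, 57.1 and 62.5 CPM with baicalin against 5.56, 8.37 and 6.24 CPM with saline. The myosin gene Myh1 had 0.959, 6.81 and 5.66 CPM with baicalin against 1.20, 1.11 and 1.02 CPM with saline, and the giant sarcomere gene Ttn had 3.52, 11.5 and 9.003 CPM with baicalin against 2.51, 3.54 and 2.62 CPM with saline.

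Of the 6 muscle markers, 2 were above the filter, Acta1 and Ckm. Both were higher at an unadjusted p under 0.05, against 6.34% of all genes tested, and neither passed the adjusted threshold. The list of 6 summed to 12.6 to 64.6 FPKM with baicalin against 9.08 to 11.9 FPKM with saline. Baicalin library 1 gave the low end of the baicalin range, near the saline range. The heart genes Myh6 and Tnnt2 did not separate the groups, at 1.57 to 2.12 and 2.86 to 4.37 CPM with baicalin and 1.68 to 2.67 and 2.32 to 3.87 CPM with saline. The part of muscle RNA in the values of Cacng1, Scn4a and Cacna1s was not tested.

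**Figure D5:**
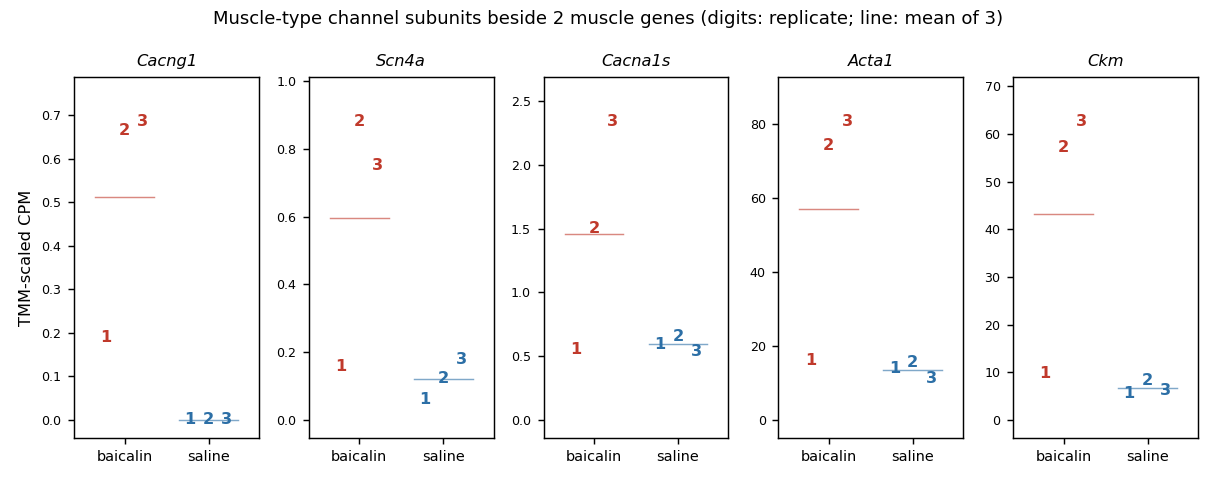
TMM-scaled CPM of 3 skeletal muscle channel genes and of the muscle genes Acta1 and Ckm in each library, baicalin in red on the left and saline in blue on the right, with digits for the replicate and lines for the mean of 3. In all 5 panels baicalin libraries 2 and 3 stand above the other 4 libraries.

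The windows before the RefSeq starts of Cacna1s (GRCm38.p6, chr1:136052561-136052810, plus strand) and Scn4a (chr11:106349391-106349640, minus strand) are shown because these genes were highest in the same libraries. The Scn4a window lies inside the deposited gene, 3898 bases from its start, and the Cacna1s window runs 61 bases past the deposited start. Capitals mark the E-box CAGCTG, a form bound by the myogenic factors, and the GC box GGGCGG on either strand.
Cacna1s: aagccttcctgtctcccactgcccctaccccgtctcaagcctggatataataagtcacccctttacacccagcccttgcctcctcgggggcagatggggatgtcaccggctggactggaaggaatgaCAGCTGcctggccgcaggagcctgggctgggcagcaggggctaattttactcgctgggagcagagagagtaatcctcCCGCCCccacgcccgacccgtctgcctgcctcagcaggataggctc
Scn4a: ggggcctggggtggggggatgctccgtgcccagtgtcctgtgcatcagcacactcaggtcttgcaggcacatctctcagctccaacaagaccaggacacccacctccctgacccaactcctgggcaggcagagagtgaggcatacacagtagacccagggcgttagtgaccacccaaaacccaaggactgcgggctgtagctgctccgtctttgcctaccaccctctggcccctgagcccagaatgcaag
CAGCTG occurs in 13.0% of all RefSeq windows and in 11 of the 41 channel windows, Cacna1s among them.

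The remaining low genes include those of peripheral sensory neurons. Scn10a had 4 counts in baicalin library 1 and 0 in the other 5 libraries, and Scn11a had 12 counts in baicalin library 1, 4 in saline library 1 and 0 in the others. Scn9a had 92 to 128 counts with baicalin and 86 to 104 with saline. An antisense gene, Gm13629, overlaps its exons and was higher in level at 0.936 FPKM against 0.106 FPKM, and with no strand setting given, reads of this pair cannot be told apart. Scn7a, the sodium-sensing channel gene, had 147 to 207 counts with baicalin and 137 to 164 with saline.

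Proteins that anchor or tune these channels were read from 2 lists. Of 15 sodium channel partners, which include the FGF homologous factors, the ankyrins and the sodium leak channel, all were measured, 12 were negative (median -0.09), against 50.2% of all genes tested, and 0 passed the adjusted threshold. At an unadjusted p under 0.05, 1 was lower, against 5.46% of all genes tested, and in 4 the baicalin libraries all lay below the saline libraries, against 9.52%. With the length trend removed the median was 0.005. Fgf11, an intracellular factor that binds sodium channel tails, had 36.4, 35.4 and 36.5 CPM with baicalin against 45.0, 45.8 and 37.2 CPM with saline, without overlap (log2 change -0.24 ± 0.09, SE). Unc80, a subunit of the sodium leak channel complex, was at -0.14 and the scaffold gene Ank2 at -0.14.

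Of 28 calcium channel partners, 24 were measured, 13 negative and 11 positive (median -0.01), with 0 past the adjusted threshold. At an unadjusted p under 0.05, 1 was lower, against 5.46% of all genes tested, and 0 had groups without overlap, against 9.52% lower and 9.93% higher. Rims1, the active zone scaffold that tethers calcium channels at release sites, had 146, 129 and 122 CPM with baicalin against 144.5, 152 and 158 CPM with saline. Baicalin library 1 overlapped saline library 1 (log2 change -0.20 ± 0.07, SE). Stac, an adaptor of L-type channels, was at -0.43 ± 0.18 (SE).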

How the data were processed

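The authors deposited 1 table with a whole-number count and an FPKM value per gene and library, per the file headers. The count totals differed between libraries, and the counts were taken as unnormalized. Whether they are direct read counts is not given. The authors' FPKM values are scaled to transcript length and mapped fragments. Per the submitters' processing notes, bcl2fastq 2.0, HISAT2, StringTie, DESeq2 and limma were used with build mm10; the sources used here do not give each tool's role, the counting rule or its strand setting. Not used here were 12 more columns of per-sample values, whose names fit none of the labelled samples. All 40 members were found in GENCODE mouse release 21, which gave exon lengths, and 35 had the same coordinates there.

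The 13153 genes whose FPKM averaged 1 or more were fitted with edgeR 4.0.16 in R 4.3.3 (TMM, quasi-likelihood test, treatment as the only term), with Benjamini-Hochberg adjustment over all of them and a threshold of 0.05. Standard errors were derived from each log2 change and its F statistic (absolute change over root F). The procedure was tested on simulated counts. Levels between genes are compared in FPKM, and libraries within a gene in TMM-scaled CPM. Alternatives were other filters, scalings, DESeq2 1.42.0, limma 3.58.1, a replicate block, removal of the length trend and leaving out each library.

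The members and gene lists were chosen with earlier results of these data known. Named in full were the gene with the highest FPKM of each class, genes with an unadjusted p under 0.05, and genes whose groups did not overlap with a log2 change of at least 0.2. Of each partner list up to 3 genes with the smallest p were named. A few genes that these rules name are not reported here, though they stay in the fits and counts. Promoter windows came from the RefSeq table of GRCm38.p6, which held 30 of the 40 genes. Counting depth limits the low genes, and limits for counts of 0 cover counting error only.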

Additional observations from a re-analysis of the deposited data

How the results depend on the processing

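The number of genes called over all genes tested was 6 in edgeR, 211 with DESeq2, 2 with limma on log2(FPKM + 0.1), 0 with a replicate block (edgeR; 1120 genes at an unadjusted p under 0.05) and 2 to 39 when a library was left out. The number of channel genes called was 0 (edgeR; 8 at an unadjusted p under 0.05), 1 with DESeq2, namely Scn2a, and 0 to 1 when a library was left out, Scn2a being called without saline library 3. The number with an unadjusted p under 0.05 was 8, against 11.8% of all genes tested. The next shares are also of all genes tested, each in its own setting. With a filter of at least 5 FPKM, under which 20 channel genes were tested, the number was 5, against 14.5%. It was 2 with the length trend removed, against 9.32%, and 6 with a replicate block, against 8.52%. When a library was left out it was 5 to 10, against 7.46 to 12.5%. The 5 were without saline library 1 (against 9.64%) or saline library 2 (against 8%), and the 10 without saline library 3 (against 10.4%). The median log2 change of the channel genes stayed negative in all 19 alternatives, from -0.16 under TPM scaling, where the median of all genes was -0.07, to -0.03 with the length trend removed. None of the 8 genes with an unadjusted p under 0.05 turned its sign in an alternative in which it was tested. Same-numbered libraries had correlations of deviations of 0.12, 0.08 and 0.01. Every library except baicalin library 3 correlated best with its own number, and that library did so with saline library 2 (0.04). The correlations were small, and the numbers were not taken as pairs. The cause of these shifts was not tested, apart from the smaller number of genes under a stricter filter. Genes under about 1 FPKM rest on few counts.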
